A study of Mus musculus with 8 samples.

Results

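The phosphodiesterases of cyclic AMP, the enzymes that end the signal protein kinase A (PKA) responds to, were followed in the stomach corpus of mice carrying an altered PKA catalytic subunit. Members were chosen by name as phosphodiesterases known to break down cyclic AMP. The choice is not complete, since others that also act on cyclic AMP, such as Pde8b and Pde1c, lie outside it. The members are Pde3a, Pde3b, Pde4a, Pde4b, Pde4c, Pde4d, Pde7a, Pde7b, Pde8a and Pde10a. These are 10 of the 54532 genes in the count table, and all 10 had enough reads to be among the 15862 genes tested. The lowest count of any member in any library was 19 reads, for Pde10a in control 2, with an exact Poisson 95% interval of 11.4 to 29.7 that covers counting error only.

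Cyclic AMP is made by adenylyl cyclases, releases the PKA catalytic subunits from their regulatory subunits, and is removed by phosphodiesterases, which hydrolyse it to AMP. The PDE4, PDE7 and PDE8 enzymes are selective for cyclic AMP, whereas PDE3 and PDE10 also bind cyclic GMP. PKA phosphorylates and activates long forms of PDE4 and also PDE3, which makes these enzymes part of a feedback loop. In the stomach, cyclic AMP carries the histamine signal that makes parietal cells secrete acid, and it relaxes the smooth muscle of the wall.

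RNA came from the corpus of 8 untreated mice, a mix of the C57BL/6 and CD1 strains, with 1 library per animal. All 8 carried Six2-Cre on 1 chromosome (Six2-Cre+/-), a Cre recombinase driven by Six2 regulatory sequence. The 4 controls were PKAcaR wt/wt and the 4 mutants PKAcaR fl/wt, that is with 1 floxed copy of an allele known to encode, once recombined, a PKA catalytic subunit that escapes control by the regulatory subunits. The corpus was taken as a whole, so mucosa, muscle wall, nerves and blood cells are mixed, the cells in which Cre acted are not separated, and fewer cells of a type cannot be told apart from less RNA per cell. Age and sex are not given. Libraries held 18184281 to 23814720 counted reads, with no pair within a group agreeing within sampling noise.

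Some features of the libraries bear on every value below. Pgc, the pepsinogen C gene of chief cells, took 20.7% to 31.2% of the reads in controls and 0.107% to 4.60% in mutants, so mutant libraries spent more of their reads on all other genes. The main scaling (TMM, trimmed mean of M values) and the deposited FPKM values (a level scaled for gene length and library size) both allow for this, whereas dividing by the column total does not and shifts the median over all genes by 0.70 on the log2 scale. Mutant 2 stood apart, with a correlation across genes (log2 CPM + 1) of at most 0.882 with any other mutant, against 0.981 to 0.982 for the closest partner of each of the other mutants. Control 3 and mutant 3 carried transcripts of forestomach squamous epithelium, with a summed level of 8 squamous markers of 126 and 320 FPKM against at most 1.79 in the other 6. Parietal and chief cell markers, which define the corpus, were present in controls, summing to 7703 to 10500 FPKM over 12 genes listed for parietal cells. Prkaca, the gene behind the modified allele, lay between 30.7 and 34.3 FPKM in controls and between 14.7 and 16.3 in mutants (log2 fold change -1.08, SE 0.09, adjusted p = 0.000604 by the quasi-likelihood test of edgeR with Benjamini-Hochberg adjustment). Counts cannot separate its modified from its unmodified copy.

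Per length of transcript, Pde8a was the most abundant member in controls, at 11.2 ± 0.917 FPKM (SD, n = 4). Pde3b followed at 3.87 ± 0.426, Pde4a at 2.88 ± 0.143, Pde7a at 1.47 ± 0.226, Pde4c at 1.47 ± 0.419, Pde4d at 1.05 ± 0.0392, Pde4b at 0.679 ± 0.115, Pde3a at 0.563 ± 0.181, Pde7b at 0.265 ± 0.0434 and Pde10a at 0.139 ± 0.0373. Of neighbours in this order, Pde7a and Pde4c, Pde4c and Pde4d, and Pde4b and Pde3a had overlapping control ranges, and the other 6 neighbouring pairs did not overlap. In mutants Pde8a and Pde3b kept the first and second place by mean FPKM. In mutant 2 alone, Pde4b was the most abundant of all, at 9.46 FPKM, with Pde8a close behind at 9.25.

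**Figure D1:**
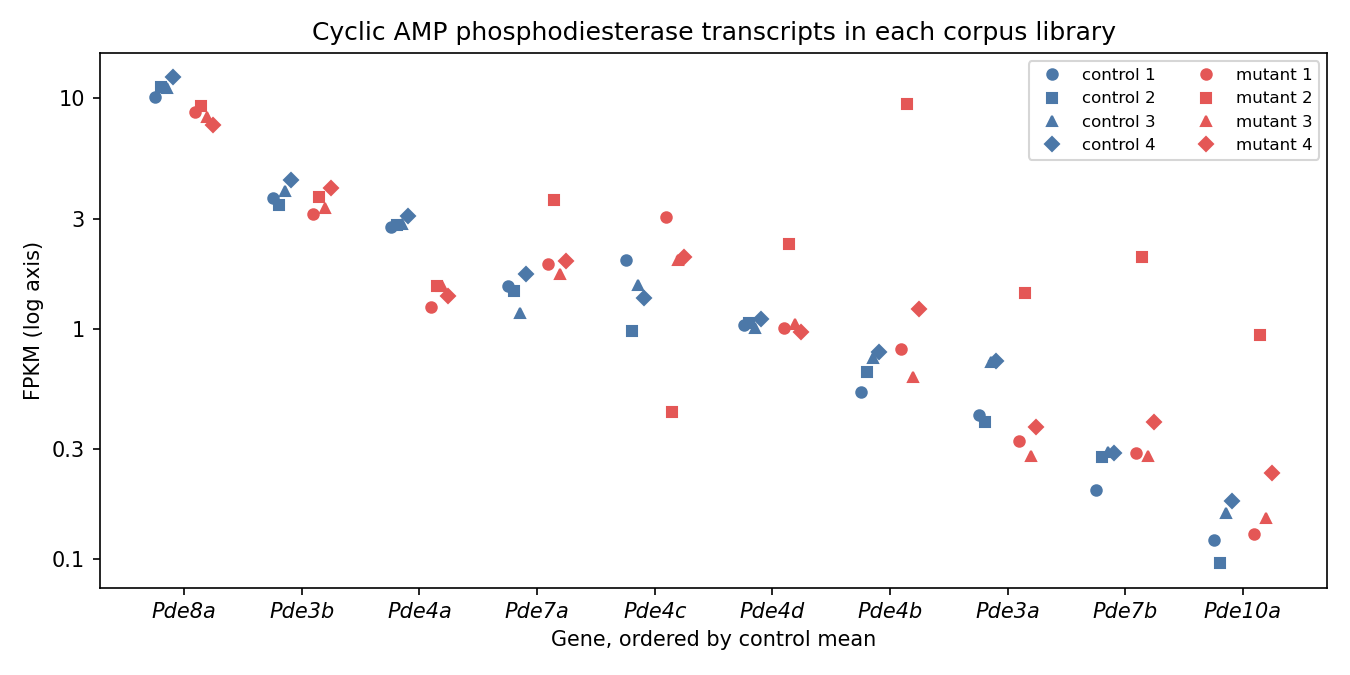
FPKM on a log axis for the 10 genes, ordered by control mean, with 1 point per library (blue controls, red mutants, a marker shape per replicate number). For Pde4a and Pde8a all 4 mutants lie below all 4 controls, and mutant 2 (red square) is the highest mutant for Pde4b, Pde4d, Pde7a, Pde3a, Pde7b and Pde10a and the lowest for Pde4c.

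Of the family, Pde4a and Pde8a were lower in the mutant corpus, and no member was higher with all libraries in the test. Pde4a fell to 0.493 of its control mean and Pde8a to 0.759. The other 8 were not called (edgeR, adjusted p between 0.113 and 0.914). Of these, 2, Pde4b and Pde7a, were higher at an unadjusted p under 0.05, as were 2995 of all 15862 tested genes. DESeq2 and limma-voom also called 0 members higher, but DESeq2 gave no p for Pde4b and Pde7b, so it could not call them. Over all tested genes 10.8% were called lower and 9.39% higher, 20.2% in either direction, so 2 of 10 lower and 0 of 10 higher lie near that background. The median log2 fold change of the members was 0.35, against 0.07 for all tested genes. The groups did not overlap for these 2 members alone, both lower, where 30.3% of all tested genes did not overlap and 16.1% lay lower without overlap.

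Pde4a (ENSMUSG00000032177, chromosome 9, 21165714 to 21213248 on the plus strand in GRCm38) encodes a cyclic AMP-selective enzyme of the rolipram-sensitive PDE4 subfamily. Controls 1 to 4 held 2.77, 2.82, 2.86 and 3.09 FPKM, and mutants 1 to 4 held 1.24, 1.53, 1.54 and 1.38. The groups did not overlap, and mutant 2 sat among the other mutants for this gene. Its log2 fold change was -1.02 (SE 0.12, edgeR adjusted p = 0.00174), and it stayed called when any 1 library was left out (adjusted p from 0.000134 to 0.00996). With column totals as library sizes it was -0.33 (SE 0.15, adjusted p = 0.0790), no longer called, and on that scale mutant 2, at 15.4 CPM (reads scaled to the column total), lay above control 3, at 15.1.

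Pde8a (ENSMUSG00000025584, chromosome 7, 81213596 to 81334533, plus strand) encodes a high-affinity cyclic AMP phosphodiesterase that is resistant to the broad inhibitor IBMX. Its control values were 10.1, 11.2, 11.1 and 12.3 FPKM, and its mutant values 8.70, 9.25, 8.29 and 7.65. All mutants lay below all controls, but the gap between mutant 2 and control 1 was narrower than the range of either group. The log2 fold change was -0.40 (SE 0.10, edgeR adjusted p = 0.0282). That call ended when control 2, 3 or 4, or mutant 1, 3 or 4, was left out (adjusted p 0.0544 to 0.0809), and with column totals the value turned to 0.30 (SE 0.13, adjusted p = 0.0749).

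Promoter sequence is shown for 3 members, the pair called lower and Pde4b, the member with the highest level in mutant 2. Each holds the core of the cyclic AMP response element, the motif bound by CREB, a transcription factor that PKA phosphorylates. For Pde4a and Pde4b the window shown was picked because it holds this core, and 2 of 3 Pde4a windows and 3 of 4 Pde4b windows hold none. Pde8a has no other window. Among members with a window, only these 3 hold the core, and Pde4c, Pde4d, Pde7b and Pde10a hold none. Genes with more windows have more places for a match, and no share per gene over all genes was computed for this split. The windows run from 250 bases before to 50 after a RefSeq start (GRCm38.p6), on the plus strand, 5′ to 3′, with TGACG or its reverse complement CGTCA in capitals.
Pde4a, chr9:21183851-21184150: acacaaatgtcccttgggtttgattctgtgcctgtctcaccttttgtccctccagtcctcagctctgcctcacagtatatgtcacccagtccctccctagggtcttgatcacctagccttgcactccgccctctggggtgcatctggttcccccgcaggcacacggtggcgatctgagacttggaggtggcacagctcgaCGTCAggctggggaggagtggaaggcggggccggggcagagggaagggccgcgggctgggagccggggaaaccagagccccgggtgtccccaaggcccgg
Pde8a, chr7:81213015-81213314: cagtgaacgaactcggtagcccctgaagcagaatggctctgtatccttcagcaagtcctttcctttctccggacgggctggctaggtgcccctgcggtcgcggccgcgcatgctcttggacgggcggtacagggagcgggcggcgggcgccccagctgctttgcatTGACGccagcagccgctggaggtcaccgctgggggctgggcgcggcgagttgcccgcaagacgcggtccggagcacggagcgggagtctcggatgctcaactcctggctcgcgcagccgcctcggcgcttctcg
Pde4b, chr4:102421305-102421604: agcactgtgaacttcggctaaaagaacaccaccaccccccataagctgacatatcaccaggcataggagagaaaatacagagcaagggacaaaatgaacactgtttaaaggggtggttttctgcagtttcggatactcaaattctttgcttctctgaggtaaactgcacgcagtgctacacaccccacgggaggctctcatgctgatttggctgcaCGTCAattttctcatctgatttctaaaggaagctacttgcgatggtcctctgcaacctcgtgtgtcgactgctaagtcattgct

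The core begins 50 bases before the RefSeq start in the Pde4a window, 84 before in that of Pde8a and 34 before in that of Pde4b. The Pde8a window ends at 81213314, upstream of the start of the gene as counted, at 81213596. The core of Pde8a therefore lies further from that counted start. RefSeq starts were matched for 7 of the 10 members, with 13 windows in all. The core, searched on both strands and also counted where it lies inside the full element, was in 3 of the 13 windows (23.1%), against 20.8% of 32851 promoters. The full element TGACGTCA was in 0 of the 13, against 1.79% of all promoters. A match is only a description of these letters. Pde4a has 3 coding transcript starts in GENCODE M21, Pde4b 9, Pde4c 4 and Pde4d 12, and the gene counts add all of these together, so long and short forms cannot be separated.

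Pde4b (ENSMUSG00000028525, chromosome 4, 102087543 to 102607259), the PDE4 gene best known from immune cells, showed the widest spread. Controls held 0.531, 0.646, 0.747 and 0.790 FPKM, and mutants 0.814, 9.46, 0.618 and 1.22. Mutant 2 was 13.9 times the control mean and 10.7 times the mean of the other 3 mutants, which overlapped the controls. The log2 fold change of 2.15 had an SE of 0.88 and was not called (edgeR adjusted p = 0.115), and without mutant 2 it was 0.38 (SE 0.24, adjusted p = 0.262).

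Pde4c (ENSMUSG00000031842, chromosome 8, 70723720 to 70751186), the least widely expressed PDE4 gene, ran the other way in mutant 2. Control levels were 1.98, 0.977, 1.55 and 1.35 FPKM, against 3.06, 0.436, 1.98 and 2.05 in mutants 1 to 4. Mutant 2 was the lowest of all 8 libraries, while mutant 1 was the highest, and mutant 3 and control 1 were level. Pde4c was not called with all libraries (log2 fold change 0.36, SE 0.51, edgeR adjusted p = 0.643) and was called higher without mutant 2 (0.69, SE 0.24, adjusted p = 0.0468).

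Pde4d (ENSMUSG00000021699, chromosome 13, 108449948 to 109953461), known from heart and smooth muscle, was steady outside mutant 2. Its FPKM values were 1.04, 1.06, 1.01 and 1.10 in controls and 1.00, 2.33, 1.04 and 0.969 in mutants. Mutants 1, 3 and 4 lay within or just under the narrow control range, and mutant 2 held 2.21 times the control mean. The gene was not called (log2 fold change 0.34, SE 0.29, edgeR adjusted p = 0.437, and -0.07, SE 0.13, without mutant 2).

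In the PDE3 subfamily, whose enzymes are inhibited by cyclic GMP, neither gene was called with all libraries. Pde3b (ENSMUSG00000030671, chromosome 7, 114415281 to 114539251), the enzyme through which insulin lowers cyclic AMP in adipocytes, was at 3.68, 3.42, 3.94 and 4.42 FPKM in controls and at 3.14, 3.74, 3.35 and 4.07 in mutants. These ranges overlapped, and mutant 2 was unexceptional (log2 fold change -0.12, SE 0.12, edgeR adjusted p = 0.526). Column totals gave 0.58 for Pde3b (SE 0.15, adjusted p = 0.0100). Pde3a (ENSMUSG00000041741, chromosome 6, 141249269 to 141507448), the form of cardiac and vascular muscle, held 0.421, 0.393, 0.714 and 0.725 FPKM in controls and 0.326, 1.44, 0.280 and 0.377 in mutants. Mutants 1, 3 and 4 lay below every control and mutant 2 above every control. Its log2 fold change was 0.10 (SE 0.56, adjusted p = 0.914) with all libraries and -0.78 (SE 0.27, adjusted p = 0.0432) without mutant 2. In Pde3a 5.82% of exon bases overlap an antisense gene, and the strand setting of the counting is not given in the sources used here.

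The PDE7 genes encode cyclic AMP-selective enzymes known from lymphocytes and brain. Pde7a (ENSMUSG00000069094, chromosome 3, 19223108 to 19311322, minus strand) was at 1.53, 1.46, 1.17 and 1.72 FPKM in controls and at 1.91, 3.63, 1.72 and 1.96 in mutants. All but mutant 3 lay above every control, and mutant 3 met the highest control. The change was not called (log2 fold change 0.64, SE 0.26, edgeR adjusted p = 0.113), nor without mutant 2 (0.34, SE 0.16, adjusted p = 0.125). Pde7b (ENSMUSG00000019990, chromosome 10, 20398004 to 20725078, minus strand) held 0.200, 0.277, 0.291 and 0.290 FPKM in controls and 0.288, 2.04, 0.280 and 0.396 in mutants. Mutant 2 was 7.72 times the control mean and the others overlapped the controls (log2 fold change 1.50, SE 0.68, adjusted p = 0.151, and 0.27, SE 0.25, without mutant 2).

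Pde10a (ENSMUSG00000023868, chromosome 17, 8525372 to 8986648), the dual-specificity enzyme of striatal neurons, was the rarest member. Controls held 25, 19, 32 and 39 reads, or 0.121, 0.0961, 0.158 and 0.180 FPKM. Mutants held 50, 297, 45 and 72 reads, or 0.129, 0.939, 0.150 and 0.238 FPKM. Again mutant 2 alone was far above the rest, at 6.76 times the control mean, and no call was made (log2 fold change 1.38, SE 0.67, edgeR adjusted p = 0.171, and 0.30, SE 0.34, without mutant 2).

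Without mutant 2, Pde4a, Pde8a and Pde3a were lower and Pde4c was higher, that is 3 of 10 lower against 18.3% of all tested genes and 1 of 10 higher against 15.2%. The median of the members was then 0.10 on the log2 scale, against 0.02 for all tested genes. With column totals, 6 members were called higher and 0 lower, where 63.9% of all tested genes were called, 59.3% higher and 4.56% lower. Those 6 were Pde3b, Pde4b, Pde4d, Pde7a, Pde7b and Pde10a, the same 6 whose mutants all lay above all controls per column total, as did 53.9% of all tested genes (4.7% lay lower). With column totals and without mutant 2, a setting chosen after seeing the data, Pde4a was the 1 member called lower (-0.38, SE 0.16, edgeR adjusted p = 0.0470) and 7 were called higher, against 7.05% and 64.1% of all tested genes, or 71.1% in all. Pde4a kept a negative value in these 4 fits, and Pde8a changed sign with the scaling.

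**Figure D2:**
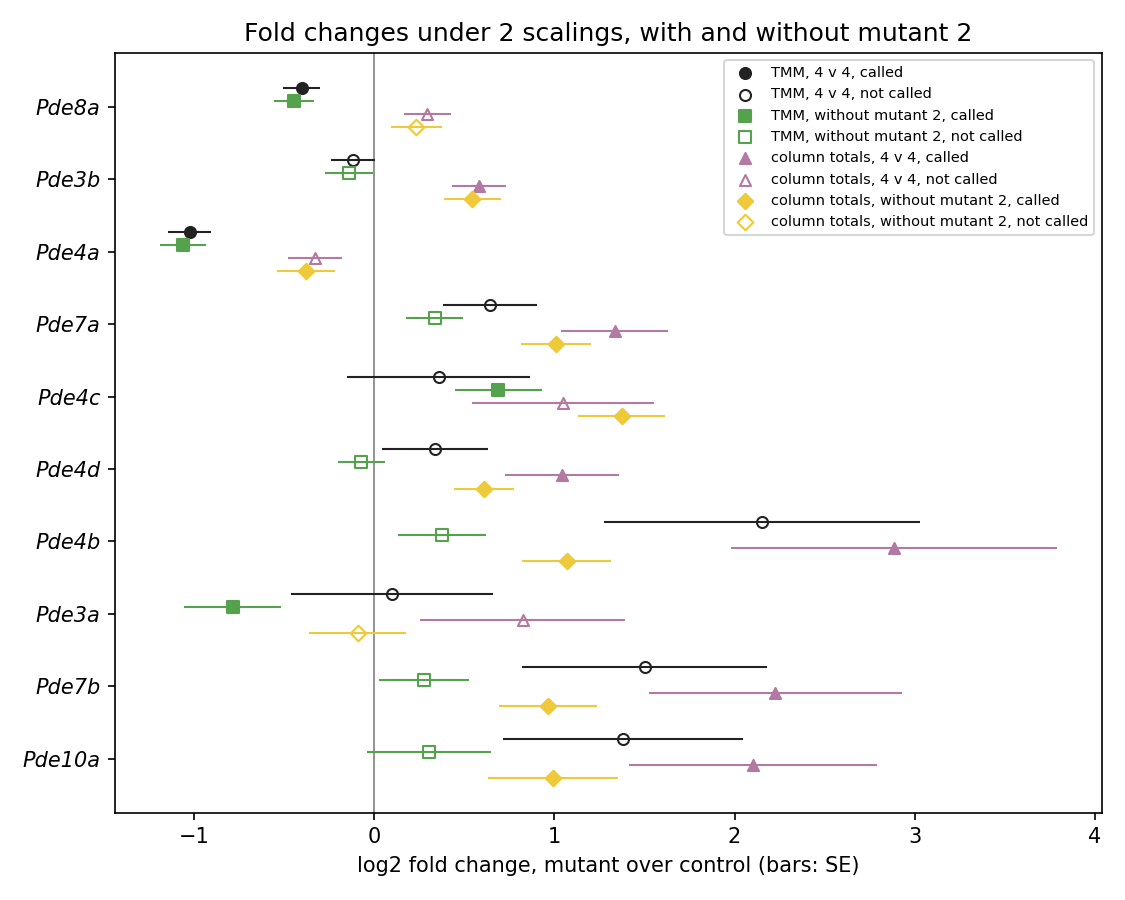
Log2 fold change, mutant over control, with SE bars, for each gene under TMM or column totals, with all 8 libraries or without mutant 2; filled symbols are called at an adjusted p under 0.05. Pde4a lies left of 0 in all 4 fits, from -1.06 to -0.33, while Pde8a crosses 0 when the scaling changes and Pde4b, Pde7b and Pde10a move towards 0 under TMM when mutant 2 is left out.

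Summed over the 10 genes, the level was 22.3 to 26.0 FPKM in controls, 19.2 to 20.6 in mutants 1, 3 and 4, and 34.8 in mutant 2. The place of mutants 1, 3 and 4 turned with the scaling: as reads scaled to the column total, the family held 107 to 145 CPM in controls, 160 to 185 in these mutants and 392 in mutant 2. Shares of the FPKM sum within a library do not depend on how libraries are scaled. Pde8a gave 45.1% to 50.1% of that sum in controls, 37.7% to 43.1% in mutants 1, 3 and 4, and 26.6% in mutant 2. The share of Pde4a was 11.9% to 12.6% in controls and 4.39% to 7.99% in mutants. Pde7a made up 4.99% to 6.84% in controls and 8.93% to 10.4% in mutants, and Pde4c made up 4.37% to 8.88% in controls, 10.1% to 14.9% in mutants 1, 3 and 4 and 1.25% in mutant 2. Pde4b took 2.38% to 3.17% in controls, 3.21% to 6.00% in mutants 1, 3 and 4, and 27.2% in mutant 2. These shares are descriptions, since 1 member's share falls when another's rises.

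**Figure D3:**
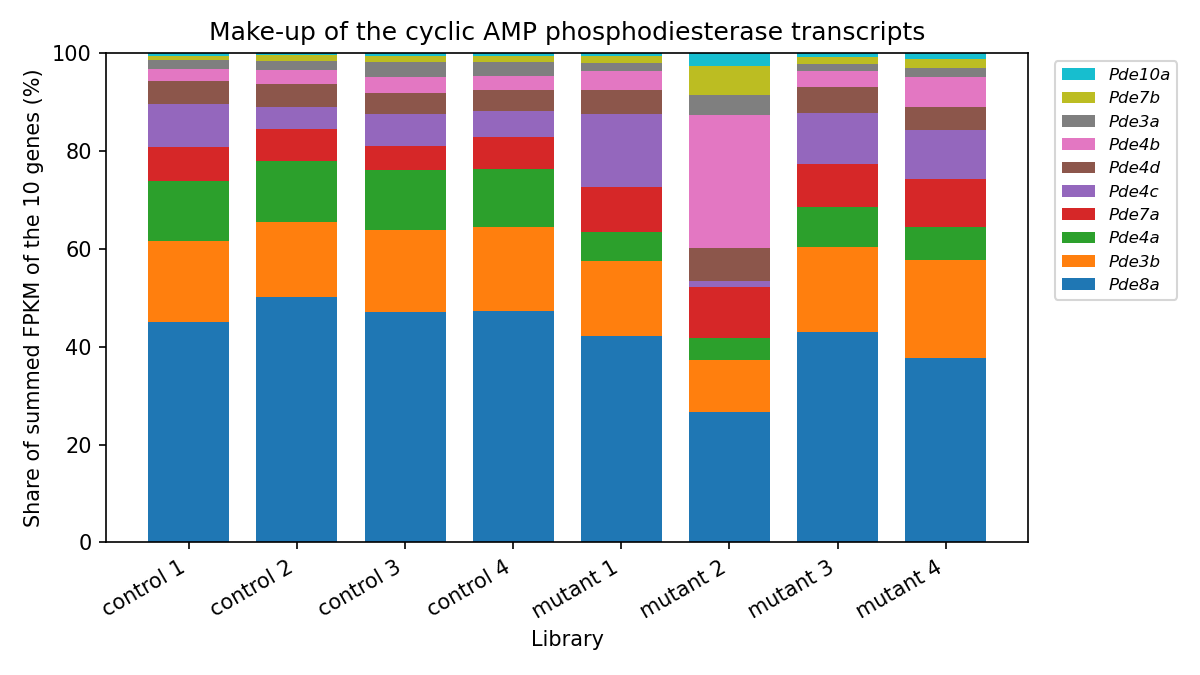
Share of the summed FPKM of the 10 genes (%) taken by each gene, 1 bar per library. Pde8a is the largest part in 7 libraries, and the Pde4a part is smaller in every mutant than in every control. In mutant 2 Pde4b is the largest part at 27.2%, just above Pde8a at 26.6%.

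Ratios between genes of 1 subfamily within a library were compared in the same way, in 8 pairs, by an exact permutation test over the 70 assignments of libraries (two-sided, smallest possible p = 0.0286). Relative to Pde4d, Pde4a was 2.67, 2.66, 2.83 and 2.80 times as abundant in controls and 1.24, 0.656, 1.47 and 1.43 times in mutants. This ratio varied little among controls, and all mutants lay below them. The mean log2 ratio was 1.45 ± 0.05 in controls and 0.19 ± 0.55 in mutants (SD, n = 4, exact permutation p = 0.0286, adjusted over the 8 pairs p = 0.114). Without mutant 2 the difference was -0.99, against -1.26 with it. Pde4a over Pde4b also separated the groups, from 3.83 to 5.21 in controls and from 0.162 to 2.49 in mutants (log2 difference -2.23, or -1.40 without mutant 2, exact permutation p = 0.0286, adjusted p = 0.114). None of the 8 pairs passed after adjustment, which the small design nearly fixes, since a lone pair at the smallest possible p cannot pass over 8 pairs. The other 6 overlapped between groups (adjusted p from 0.343 to 0.971). Pde4a over Pde4c was lower in mutants 1, 3 and 4 than in every control, at 0.406, 0.776 and 0.674 against 1.40 to 2.89, but highest of all in mutant 2, at 3.51.

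**Figure D4:**
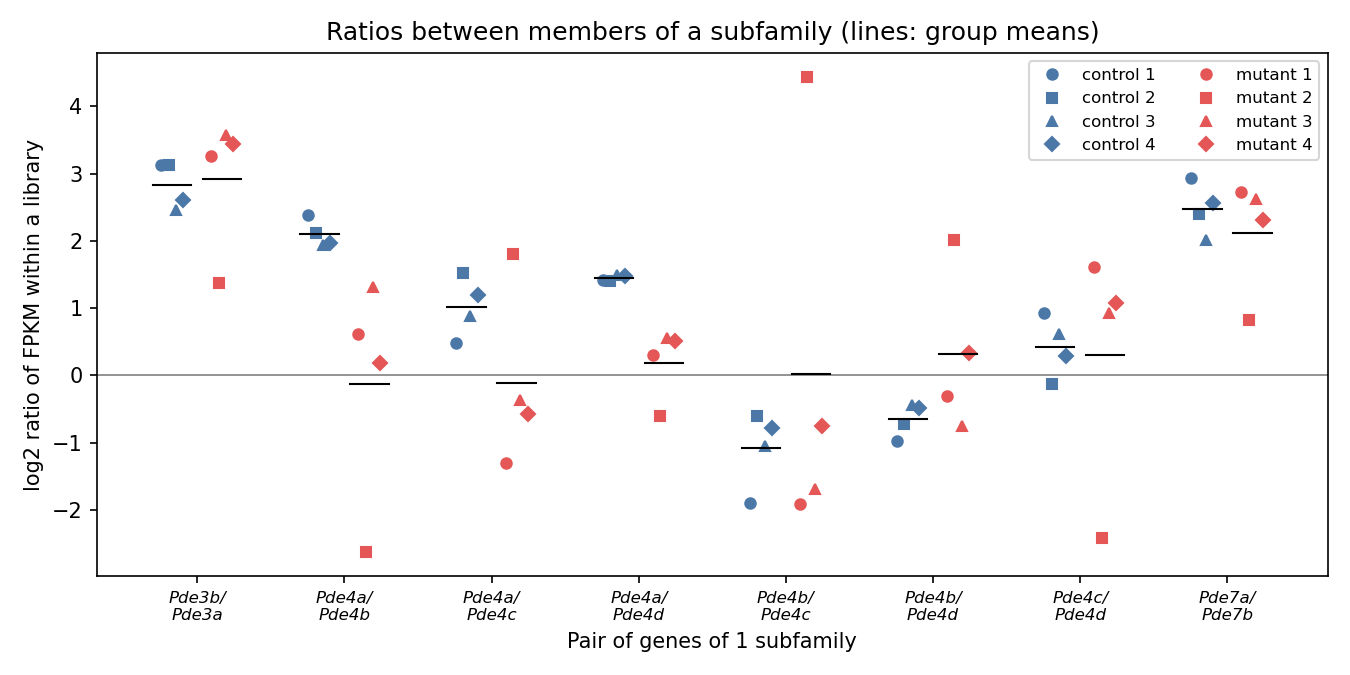
Log2 ratio of FPKM within a library for the 8 pairs of genes of 1 subfamily, 1 point per library (blue controls, red mutants) with lines at group means. The groups are apart for Pde4a over Pde4b and Pde4a over Pde4d, where controls average 2.10 and 1.45, and mutant 2 (red square) is the extreme mutant in every pair.

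The same library differed in cell type markers. Summed over 7 fibroblast genes, mutant 2 held 4157 FPKM, against 212 to 240 in controls and 190 to 282 in the other mutants. Over 6 endothelial genes it held 152 FPKM against 26.9 to 34.1 in controls and 19.8 to 21.3 in the other mutants, and over 12 leukocyte genes 1789 against 72.1 to 75.9 and 105 to 210. Its sum over the 12 genes listed for parietal cells was 180 FPKM. Of this, Atp4a, a proton pump gene, gave 1.17 and Gif, the intrinsic factor gene, 95.3. In mice Gif is known as a chief cell gene, so this sum is not of parietal cells alone. The chief cell sum of mutant 2 was 637 FPKM. The other mutants held 1265 to 1978 FPKM over the parietal list, Gif included, and chief cell sums of 8310 to 28175. Among fibroblast genes Pdgfra, a growth factor receptor, was the 1 of 7 called higher, among endothelial genes 0 of 6 were called, and among leukocyte genes 5 of 12 were higher, led by S100a9 and S100a8, the neutrophil calprotectin subunits, where 9.39% of all tested genes were higher. Without mutant 2, 4 of 6 endothelial genes were lower, 1 fibroblast gene was higher and 1 lower, and 6 leukocyte genes were higher. In that fit 18.3% of all tested genes were lower and 15.2% higher. With column totals 6 fibroblast, 2 endothelial and 11 leukocyte genes were higher, against 59.3% of all tested genes. The part of these cells in the high Pde4b, Pde7b, Pde10a, Pde3a, Pde4d and Pde7a values of mutant 2, and in its low Pde4c, was not tested.

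Markers of other cells also moved in all mutants, beside the lower Pde4a and Pde8a. Over all tested genes 10.8% were lower and 9.39% higher. Of smooth muscle genes 11 of 12 were lower, among them Hspb6, a small heat shock protein gene, and Mylk, myosin light chain kinase, and their sum went from 976 to 1446 FPKM in controls to 105 to 315 in mutants. Of enteric neuron and glia genes 7 of 10 tested were lower, including Snap25 and Elavl4, with sums of 17.9 to 26.3 and 3.25 to 7.94. Of 12 genes listed for parietal cells 9 were lower, led by Slc4a2, an anion exchanger, and Hrh2, the histamine receptor. The sum in mutants was 180 to 1978 FPKM. Gif, the chief cell gene on that list and not among the 9, made up 708, 95.3, 913 and 869 FPKM of it in mutants 1 to 4. Atp4a held 117, 1.17, 383 and 192 FPKM there, against 2567 to 3442 in controls. Of chief cell genes 3 of 6 were lower, with Rab26 and Chia1 leading, and the sum went from 202930 to 365230 in controls to 637 to 28175 in mutants. Of adipocyte genes 3 of 4 tested were lower, led by Car3 and Fabp4. Adipoq and Lep had 0 reads in all mutants, but also in control 4. Controls 1 to 4 held 150, 42, 13 and 0 reads of Adipoq, 22, 2, 2 and 0 of Lep and 599, 187, 125 and 44 of Car3. All 5 genes listed for mucous neck cells were higher, led by Aqp5 and Cftr. In controls Cftr was near the floor, at 2 to 10 reads, and Aqp5 held 1.98 to 11.2 FPKM, where Muc6 held 109 to 296. The 5 are therefore not all markers of the neck cells of controls, and their count is not a count of neck cell markers alone. With column totals 10 smooth muscle, 7 neuron and glia, 9 parietal list, 3 chief and 1 adipocyte gene were lower. On that scale the 5 genes listed for neck cells were higher and so was 1 chief cell gene. Of all tested genes 4.56% were then lower and 59.3% higher. Without mutant 2, 5 of 6 chief cell genes and 12 of 12 genes of the parietal list, Gif included, were lower (18.3% of all tested genes). Squamous genes were called in 0 of 3 tested, where 0 also had an unadjusted p under 0.05 by edgeR. The part of these shifts in the Pde4a and Pde8a results was not tested.

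Of 14 other phosphodiesterase genes 7 had enough reads to be tested, and Pde1c, a calcium- and calmodulin-stimulated enzyme that cleaves cyclic AMP and cyclic GMP, was the 1 called. It held 1.95, 1.59, 1.95 and 1.92 FPKM in controls and 0.772, 0.781, 0.903 and 0.696 in mutants. All mutants lay below all controls, mutant 2 included, and the log2 fold change was -1.24 (SE 0.12, edgeR adjusted p = 0.00109), or -0.54 (SE 0.13, adjusted p = 0.00837) with column totals. Per transcript length Pde6d, a prenyl-binding protein named for the retinal enzyme, was the most abundant of the 14 at 7.21 ± 0.493 FPKM in controls and 6.07 ± 1.23 in mutants, and it was not called. Pde2a had 0 reads in all controls and 1 or 2 in each mutant.

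Upstream and downstream of the phosphodiesterases, calls among the other lists of the pathway were all in the lower direction under TMM. Their counts are read against 10.8% of all tested genes called lower and 9.39% higher, and the lists with 1 gene lower lie near or under that share or hold few genes. Of 8 adenylyl cyclase genes tested, Adcy5 was lower (log2 fold change -1.51, SE 0.33, edgeR adjusted p = 0.0165) and 7 were not called. Of 9 PKA subunit and inhibitor genes, Prkaca and Pkia, a PKA inhibitor (-1.81, SE 0.47, adjusted p = 0.0295), were lower. Adcy5 and Pkia were not called with column totals (-0.80 and -1.10, adjusted p 0.0624 and 0.0695). Of 13 A-kinase anchoring protein genes, which hold PKA and phosphodiesterases in place, 1 was lower, the muscle anchor Akap6 (-2.16, SE 0.52, adjusted p = 0.0222, and -1.45 with column totals). Of 6 tested genes for partners of PDE4, Arrb1, the beta-arrestin that brings PDE4 to receptors, was lower (-0.42, SE 0.12, adjusted p = 0.0457), and it changed sign with column totals (0.27, adjusted p = 0.141).

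Of 6 tested genes for other receivers of cyclic AMP, 3 were lower, and the 2 of smallest p were Rapgef4, the exchange factor EPAC2 (-2.42, SE 0.18, adjusted p = 0.000536), and Bves, a cyclic AMP-binding Popeye domain protein of muscle (-3.76, SE 0.51, adjusted p = 0.00272). Both were also lower with column totals, at -1.72 and -3.07. Among 8 genes of CREB and its coactivators 0 were called by edgeR (1 with an unadjusted p under 0.05), where 20.2% of all tested genes were called. Of 12 genes known to respond to cyclic AMP through CREB, Ppargc1a, a mitochondrial coactivator, was lower (-1.0, SE 0.17, adjusted p = 0.00720) and 11 were not called, and with column totals its value was -0.31 (adjusted p = 0.179).

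Mutant 2 and the scaling moved these counts. Without mutant 2, 5 PKA genes were lower (Prkar1a, Prkar1b and Pkig beside Prkaca and Pkia), as were 5 anchoring protein genes, 2 cyclases, 2 PDE4 partners, 3 other receivers and 4 responsive genes (Nr4a3, Fosb, Sik1 and Ppargc1a), against 18.3% of all tested genes. In that fit Pde4dip, a PDE4 partner, and Ep300, a CREB coactivator, were higher (0.46 and 0.39, edgeR adjusted p 0.0464 and 0.0465), against 15.2%. With column totals 8 CREB family genes, 6 anchoring protein genes, 4 PDE4 partners, 3 PKA genes, 1 cyclase, 1 other receiver and 1 responsive gene were higher, against 59.3% of all tested genes. On that scale 1 PKA gene, 1 anchoring protein gene and 3 other receivers were lower, against 4.56%.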

How the data were processed

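Corpus RNA was isolated with Trizol, and polyA-selected libraries were built with a NEBNext Ultra kit, per the labels' protocols. CASAVA, fastp, STAR 2.5 and featureCounts are named, without roles, in the submitters' processing notes. The authors deposited a table of raw counts by gene, together with FPKM values. Each FPKM equals the count over the gene's length and 1 constant per library, which lay 1.00 to 1.01 times the TMM library size. The build is not given in the sources used here, but all 10 members have the same start, end and exon length as in GENCODE M21 (GRCm38). A column named SCI was taken as the first control. The smallest chi-square per degree of freedom between libraries of a group was 14.2.

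Genes kept by filterByExpr were TMM-scaled and fitted with a robust quasi-likelihood model in edgeR 4.0.16 under R 4.3.3, with p adjusted over all 15862 genes by Benjamini-Hochberg, with a threshold of 0.05. SE is the unshrunken log2 coefficient over the square root of F. The tests were written down before the files were read, but the members and the 19 lists were chosen with earlier results of these data known. Named were all members, Prkaca, called phosphodiesterases, and in other pathway lists the 2 called genes of smallest p per direction and in marker lists the 2 of smallest p, of which a part is printed. Pde6d, Pde2a and genes called under single alternatives were singled out after their values were seen. Alternatives were DESeq2 1.42.0, limma-voom (limma 3.58.1) with sample weights, RLE, column totals, TMM without parietal and chief cell genes, other filters, a replicate block, leaving out libraries, and limma on log2 FPKM with a pseudocount of 1 or 0.1 for genes whose FPKM averaged 0.5 or more, or for all genes.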

Additional observations from a re-analysis of the deposited data

Results flagged for a closer look

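In all, 38 groups of 4 values were looked at (the 10 genes, their sum and the 8 log2 ratios, in controls and mutants). Of these, 10 had 1 library set apart from the other 3 by more than Dixon's 95% critical share of the group's range. Chance gives about 1 in 20 for separate groups, but these groups share libraries, and the sum and ratios reuse the 10 genes. The count is therefore only a description. In 9 of the 10 flagged groups the library set apart was mutant 2. It was far above the other mutants for Pde3a (1.44 FPKM), Pde4b (9.46 FPKM), Pde4d (2.33 FPKM), Pde7a (3.63 FPKM), Pde7b (2.04 FPKM), Pde10a (0.939 FPKM) and the sum of the 10 genes (34.8 FPKM). It was far below them for the log2 ratio of Pde3b to Pde3a (1.38) and of Pde4c to Pde4d (-2.42). The remaining case was Pde7b in control 1, at 0.200 FPKM, or 40 reads, below the other controls.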

How the results depend on the processing

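Of 206 member values recomputed under alternatives, 178 kept their direction and side of the threshold, or changed sign without a call in either fit, 11 lost a call, 12 gained one and 5 changed sign with a call in 1 of the fits. The 5 were Pde3a without mutant 2 (-0.78, and up to 0.33 with another library left out), Pde3b with column totals (0.58, and 0.54 without mutant 2) and Pde8a with column totals (0.30, and 0.24 without mutant 2). Genes called numbered 5691 with limma-voom, 10136 with column totals (11471 without mutant 2), 1824 with the replicate block, 1410 without both libraries numbered 3, and 1717 to 5400 when 1 library was left out (1717, 1941 and 1723 without controls 1, 2 and 3, 5400 without mutant 2 and 1926 without mutant 4), against 3208. Members called higher were 6 with column totals (7 without mutant 2) and 0 or 1 with 1 library left out. Members called lower were 0 with column totals (1 without mutant 2), 1 with no low-count filter, with the replicate block, without both libraries numbered 3 and with unfiltered log2(FPKM + 1), and 1 to 3 with 1 library left out. The replicate numbers did not pair the samples (correlation of same-numbered deviations -0.111 to 0.0637, and 1 of 4 numbers correlated best with itself), and with the replicate block Pde8a kept -0.40 (edgeR adjusted p = 0.102) and Pde4a -1.03 (adjusted p = 0.0180). For ratios the block's sign-flip test on 4 pairs could not reach the threshold. DESeq2 gave no p for Pde4b and Pde7b, and Pde10a fell under the mean FPKM of 0.5. The cause of these differences was not tested. Depth limits Pde10a most, with 19 to 39 reads in controls.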

Other observations

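Some phosphodiesterase genes outside the family, chosen after their values were seen, were also highest in mutant 2. Pde1a, a calmodulin-stimulated enzyme, held 6.34 FPKM there against 1.36, 1.48 and 1.67 in the other mutants and 1.22 to 1.42 in controls. Pde9a, selective for cyclic GMP, held 4.52 against 1.24 to 1.97 and 1.86 to 2.42, and Pde5a, the sildenafil target, 4.39 against 2.21 to 2.72 and 2.39 to 3.67. Pde1b held 3.02 FPKM against 0.812 to 1.19 in the other mutants and 1.40 to 2.32 in controls, and without mutant 2 it was called lower (log2 fold change -0.91, edgeR adjusted p = 0.0109). Pde1c did not share this, at 0.781 FPKM in mutant 2. Pde8b, the paralog of Pde8a, lay between 0.322 and 0.456 FPKM in controls and between 0.401 and 0.511 in mutants, and was not called (log2 fold change 0.33, SE 0.24, adjusted p = 0.349).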
